A study of Mus musculus with 18 samples.

Results

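Lysosomal hydrolase and membrane genes were followed in mouse liver across 3 diets. The list held 36 genes for acid peptidases, glycosidases and lipid enzymes, their activator proteins, membrane glycoproteins, sterol carriers and the proton pump. Each gene was read from its brightest probe set among those paired with its symbol alone. On that rule 35 of the 36 were measured, out of 18193 genes in all, and each of the 35 was bright enough to be tested among 13645 genes. Cd63 had no such probe set and was not analysed here.

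Total liver RNA came from male C57BL/6J mice that arrived at 5 weeks of age, ate a stock diet for a week and then 1 of 3 diets for 20 weeks. The first group ate a Western-style diet with 0.05% quercetin, a plant flavonol. The second ate the Western-style diet alone, in which fat gave 39.9% and sucrose 34.0% of the energy, with 0.15% cholesterol added, and the third ate AIN93G, a purified control diet. Each group had 6 Affymetrix Mouse430_2 arrays, 1 mouse per array, and mice were housed 3 to a cage without a record of which shared one. All mice were males of 1 inbred strain.

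Lysosomes are the acidic compartments in which cells break down proteins, glycans, lipids and nucleic acids delivered by endocytosis, phagocytosis and autophagy. A proton pump in their membrane keeps the lumen acid, glycoproteins line that membrane, and the transcription factor TFEB drives many of their genes through a short DNA motif. In liver, hepatocytes hold most of the tissue's mass, while resident macrophages (Kupffer cells) and recruited macrophages are especially rich in lysosomes and take up lipoproteins and dead cells.

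Levels below are log2(signal + 16) after quantile normalization, and a change is a difference of such levels, so a fold is a ratio of signal + 16 and understates the change of dim genes. The arrays differed in brightness, with trimmed means of 82.9 to 96.0 in the quercetin-fed group, 80.7 to 102.5 in the Western group and 67.2 to 81.3 in the control group. Control arrays 4 and 5 were nearly identical (SD of their log2 differences 0.0679, where the next closest of 153 pairs had 0.172). They were averaged and counted once, so n is 6, 6 and 5. RNA integrity was read from the actin control probe sets, whose 3'/5' ratio was 0.55 ± 0.08 (SD, n = 6) in quercetin-fed, 0.54 ± 0.11 (SD, n = 6) in Western and 0.68 ± 0.06 (SD, n = 5) in control livers on the log2 scale. It differed from control in both Western-fed groups (two-sided exact permutation p = 0.0195 with quercetin and 0.0325 without), and the same ratio of Gapdh did not pass (exact p = 0.331 and 0.513). Alb, the serum albumin gene made by hepatocytes, was at 13.03 ± 0.07 (SD, n = 6), 13.06 ± 0.07 (SD, n = 6) and 13.08 ± 0.10 (SD, n = 5) in the quercetin-fed, Western and control livers. The mean level of 9 hepatocyte markers was 12.33 ± 0.06 (SD, n = 6), 12.27 ± 0.07 (SD, n = 6) and 12.42 ± 0.05 (SD, n = 5) in those groups.

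The first question was how the Western-style diet changed these genes relative to AIN93G. Higher levels were called for 10 of the 35 members and lower levels for 0, with a call meaning a limma p under 0.05 after Benjamini-Hochberg adjustment over all 13645 genes. The 10 were Cd68, Psap, Atp6v1a, Ctsd, Gusb, Lipa, Laptm5, Ctss, Lamp1 and Hexa, and their increases ran from 1.20-fold to 2.20-fold. They make up 28.6% of the members, where 5.49% of all tested genes were called higher and 3.16% lower. The median change of the 35 members was 0.25 on the log2 scale, against -0.01 over all tested genes, and 26 of the 35 were above 0. At an unadjusted limma p under 0.05 there were 16 members, where 23.3% of all tested genes had such a p. With the actin 3'/5' ratio as a covariate, 0 of the 35 members were called in either comparison with the control diet, where 1.10% of all tested genes were higher and 0.564% lower without quercetin and 0.667% higher and 0.469% lower with it. The part of RNA integrity in the increases was not tested further. In that fit the 10 had Western–control changes above 0, at a median of 79.6% of their size. Their median standard error was 0.14 against 0.11 without the covariate. Of the 35 members 9 had an unadjusted limma p under 0.05 there, each of them among the 10. The 10 were chosen on these same samples, so their values with the covariate are no separate test.

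Most macrophage markers were also higher in Western livers. Of 25 markers of macrophages and Kupffer cells, none of them a member, 13 were called higher and 1 lower in Western livers, with a median change of 0.68. The shares over all tested genes were 5.49% higher and 3.16% lower. Their summed signal ranged from 7550 to 20009 in quercetin-fed, from 8927 to 15871 in Western and from 6081 to 7892 in control livers, and 0 of the 25 were dim. Adgre1, which encodes the macrophage surface protein F4/80, was at 8.46 ± 0.57 (SD, n = 6), 8.33 ± 0.29 (SD, n = 6) and 7.87 ± 0.15 (SD, n = 5) in those groups. The Western–control difference in Adgre1 was not called (log2 change 0.45, limma adjusted p = 0.212). Lyz2, myeloid lysozyme, was called (log2 change 1.41, limma adjusted p = 0.00239), and the marker called lower was Cd163, a haemoglobin scavenger receptor (log2 change -1.15, limma adjusted p = 0.00285). In all, 22 of the 25 changed above 0 and 3 below. Besides Cd163 the latter were Marco and Timd4 (log2 change -0.83 and -0.40, limma adjusted p = 0.219 and 0.283). Of 8 stellate cell markers 4 were called higher and of 8 endothelial markers 1. Of 9 hepatocyte markers 0 were called higher and 1 lower, which was Tat, tyrosine aminotransferase. Of these 9, 8 changed below 0, as did 7236 of all 13645 tested genes. An unadjusted limma p under 0.05 was found for 5 of the 9, where 23.3% of all tested genes had such a p. In bulk tissue more cells of a type and more RNA per cell cannot be told apart, and the part of macrophage content in the member changes was not tested.

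**Figure D1:**
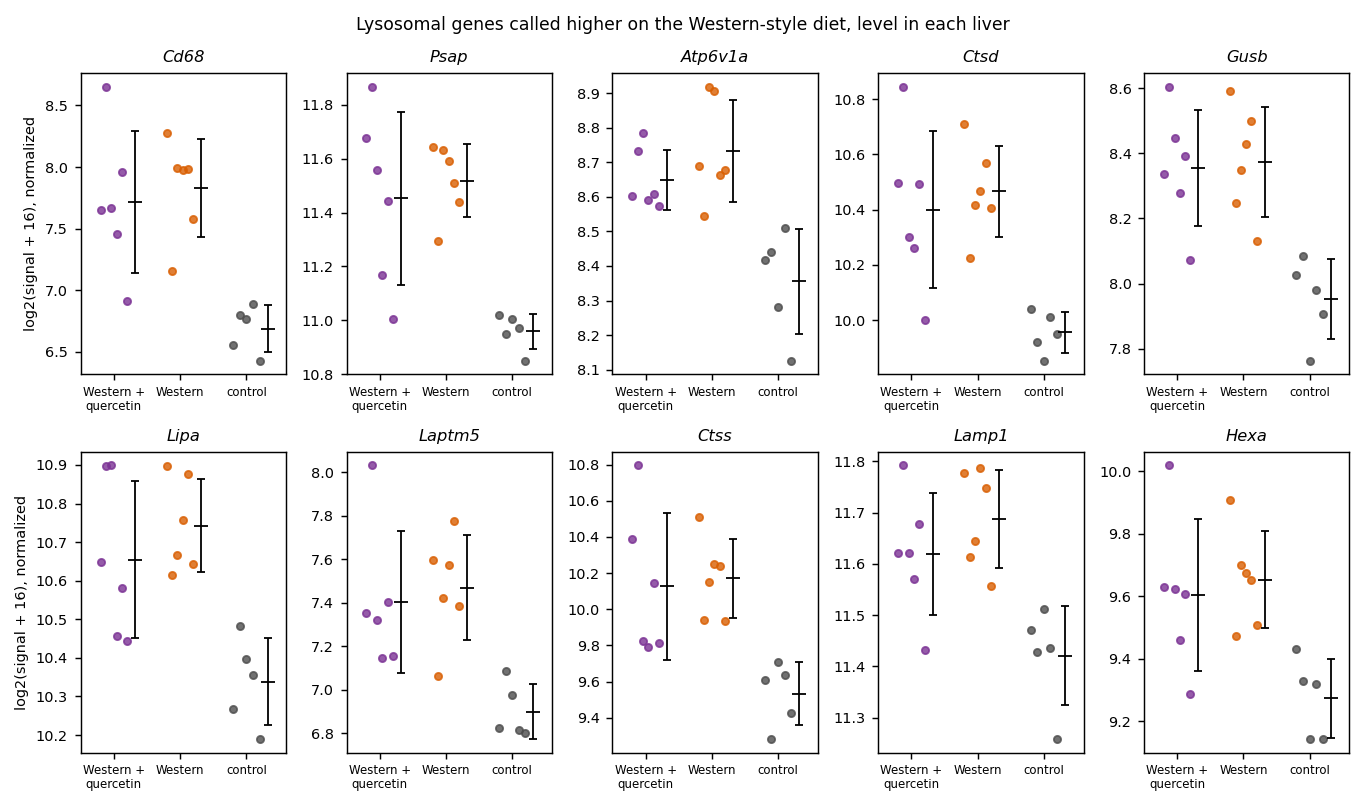
Level of the 10 members called higher on the Western-style diet, as log2(signal + 16) after normalization on the vertical axis, with 1 point per liver (6 fed the Western-style diet with quercetin, 6 fed it alone, 5 control samples) and the mean ± SD beside the points. For Cd68 the 6 quercetin-fed livers sit between 6.91 and 8.65 and the 6 Western livers between 7.16 and 8.28, above the 5 control samples at 6.43 to 6.89.

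Among the membrane proteins 3 of 5 measured members rose on the Western-style diet. Cd68, a heavily glycosylated LAMP-family protein abundant in macrophage endosomes and lysosomes, changed most of all members. Its lowest, median and highest levels were 6.91, 7.66 and 8.65 in quercetin-fed livers and 7.16, 7.98 and 8.28 in Western livers, and the control samples had 6.55, 6.80, 6.77, 6.89 and 6.43. Every liver of both Western-fed groups lay above every control sample. The Western increase was 2.20-fold (log2 change 1.14 ± 0.23, SE; limma adjusted p = 0.00558). Laptm5, a transmembrane protein of blood-derived cells, had 7.15, 7.34 and 8.03 in quercetin-fed livers and 7.06, 7.50 and 7.77 in Western livers, against 6.82, 7.08, 6.97, 6.81 and 6.80 in control samples. Western mouse 2, at 7.06, lay just below control mouse 2, at 7.08, so the Western and control values of Laptm5 overlapped. A call favours groups that do not overlap, and overlap was not counted over all tested genes. Laptm5 rose 1.48-fold (log2 change 0.57 ± 0.14, SE; limma adjusted p = 0.0198).

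Lamp1, a major glycoprotein of the lysosomal membrane, had 11.43, 11.62 and 11.79 in quercetin-fed livers and 11.56, 11.70 and 11.79 in Western livers. The control samples had 11.47, 11.43, 11.51, 11.44 and 11.26, all below the lowest Western liver. It rose 1.20-fold (log2 change 0.27 ± 0.08, SE; limma adjusted p = 0.0355), the smallest of the called increases. Lamp2, its close relative with a part in autophagy, was not called. Its lowest, median and highest levels were 11.01, 11.18 and 11.23 with quercetin and 11.09, 11.19 and 11.26 on the Western-style diet alone, against 11.26, 11.36, 11.29, 11.37 and 11.23 in control samples (Western–control log2 change -0.12, limma adjusted p = 0.297). Scarb2, which carries glucocerebrosidase to the lysosome, averaged 10.15 ± 0.17 (SD, n = 6), 10.16 ± 0.13 (SD, n = 6) and 10.25 ± 0.27 (SD, n = 5) in quercetin-fed, Western and control livers.

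Of the 10 peptidases 2 rose. Ctsd, the main aspartic protease of lysosomes, had a lowest, median and highest level of 10.00, 10.40 and 10.84 in quercetin-fed livers and 10.22, 10.44 and 10.71 in Western livers. The control samples had 10.04, 9.92, 9.85, 10.01 and 9.95, so every Western liver lay above them, while the lowest quercetin-fed liver lay among them. The Western increase was 1.42-fold (log2 change 0.51 ± 0.12, SE; limma adjusted p = 0.0121). Ctss, a cysteine protease that trims the class II invariant chain in antigen-presenting cells, had 9.79, 9.98 and 10.80 with quercetin and 9.93, 10.20 and 10.51 on the Western-style diet alone. Its control samples had 9.61, 9.28, 9.71, 9.63 and 9.43, below every liver of both Western-fed groups. The Western increase was 1.56-fold (log2 change 0.64 ± 0.16, SE; limma adjusted p = 0.0206).

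Ctsb, another cysteine protease, had 11.64, 11.90 and 12.11 in quercetin-fed livers and 11.74, 11.93 and 12.02 in Western livers, against 11.66, 11.69, 11.71, 11.68 and 11.56 in control samples. The Western and control values did not overlap, yet the change of 0.25 fell just outside the call (limma adjusted p = 0.0663). A dimmer Ctsb probe set showed a change of 0.52 and passed when all probe sets were tested (limma adjusted p = 0.0294). The change of Tpp1, the tripeptidyl peptidase, was 0.25 (limma adjusted p = 0.145), while its dimmer probe set changed by 0.31 and passed among all probe sets (limma adjusted p = 0.0401). Ctsc, which activates granule proteases, changed by 0.30 (limma adjusted p = 0.385). The other 5 cathepsins, Ctsz, Ctsl, Ctsk, Ctsa and Ctsh, had changes between -0.05 and 0.20.

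Of the 10 glycosidases, lipases and sphingolipid enzymes 3 rose. Gusb, the beta-glucuronidase, had a lowest, median and highest level of 8.07, 8.36 and 8.60 in quercetin-fed livers and 8.13, 8.39 and 8.59 in Western livers, against 8.03, 8.08, 7.76, 7.98 and 7.91 in control samples. The Western increase was 1.34-fold (log2 change 0.42 ± 0.10, SE; limma adjusted p = 0.0133). Lipa, the acid lipase that splits cholesteryl esters and triglycerides taken up with lipoproteins, had 10.44, 10.61 and 10.90 with quercetin and 10.62, 10.71 and 10.90 without it, against 10.27, 10.48, 10.40, 10.35 and 10.19 in control samples. Each Western liver again lay above each control sample. Lipa rose 1.32-fold (log2 change 0.40 ± 0.10, SE; limma adjusted p = 0.0144). Hexa, the alpha chain of beta-hexosaminidase that degrades ganglioside GM2, had 9.29, 9.62 and 10.02 in quercetin-fed and 9.47, 9.66 and 9.91 in Western livers, against 9.43, 9.33, 9.14, 9.32 and 9.14 in control samples. Its increase was 1.30-fold and close to the threshold (log2 change 0.38 ± 0.11, SE; limma adjusted p = 0.0410).

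Man2b1, the lysosomal alpha-mannosidase, was the uncalled member nearest the threshold in Western livers (log2 change 0.27, limma adjusted p = 0.0507). Gla and Glb1, the alpha- and beta-galactosidases, changed by 0.18 and 0.17, Asah1, acid ceramidase, by 0.06, and Sgsh, a heparan sulfatase, by 0.04, none of them called. The 2 members with the lowest changes were also here. Neu1, the sialidase, had 7.83, 7.87 and 7.99 in quercetin-fed livers and 7.62, 7.89 and 8.03 in Western livers, against 7.90, 7.95, 8.01, 8.25 and 8.20 in control samples (Western–control log2 change -0.20, limma adjusted p = 0.153). Gaa, which digests glycogen in lysosomes, changed by -0.21 (limma adjusted p = 0.238). On the values as deposited, where the median change of all genes is 0.22, Neu1 and Gaa were at 0.08 each and Lamp2 at 0.03, so their signs depend on the scaling. The sign of Lamp2 also depends on the probe set, since its dimmer ones changed by 0.12, 0.03 and -0.02, none of them called.

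Psap, the precursor of the saposins that present sphingolipids to their hydrolases, had 11.00, 11.50 and 11.87 in quercetin-fed livers and 11.30, 11.55 and 11.64 in Western livers. The control samples had 11.02, 10.95, 11.00, 10.97 and 10.85, a narrow band below every Western liver. Psap rose 1.47-fold (log2 change 0.56 ± 0.12, SE; limma adjusted p = 0.00877). Grn, progranulin, which is also processed in lysosomes, changed by 0.26 (limma adjusted p = 0.267). The sterol carriers that move cholesterol out of the lysosome did not pass the test, with changes of -0.05 for Npc1 and 0.15 for Npc2 (limma adjusted p = 0.852 and 0.503).

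Of the 4 proton pump members 1 rose. Atp6v1a, the ATP-hydrolysing A subunit, had a lowest, median and highest level of 8.57, 8.60 and 8.78 in quercetin-fed livers and 8.54, 8.68 and 8.92 in Western livers, against 8.42, 8.44, 8.28, 8.51 and 8.13 in control samples. Neither Western-fed group overlapped with control. The Western increase was 1.30-fold (log2 change 0.38 ± 0.09, SE; limma adjusted p = 0.0115). Atp6v0d2, a d subunit made in macrophages and osteoclasts, changed by 0.37 (limma adjusted p = 0.189), while its dimmer probe set changed by 0.57 and passed among all probe sets (limma adjusted p = 0.0227). Atp6v1b2 and Atp6v0d1, the broadly expressed B2 and d1 subunits, changed by 0.28 and 0.09 (limma adjusted p = 0.205 and 0.527). Neither the calcium channel Mcoln1 (log2 change 0.15, limma adjusted p = 0.430) nor Tfeb itself (0.25, limma adjusted p = 0.646) was called. Tfeb varied widely between mice, at 4.90, 5.70 and 6.28 in quercetin-fed and 5.62, 5.98 and 6.12 in Western livers, against 5.12, 6.18, 4.86, 6.19 and 6.10 in control samples.

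**Figure D2:**
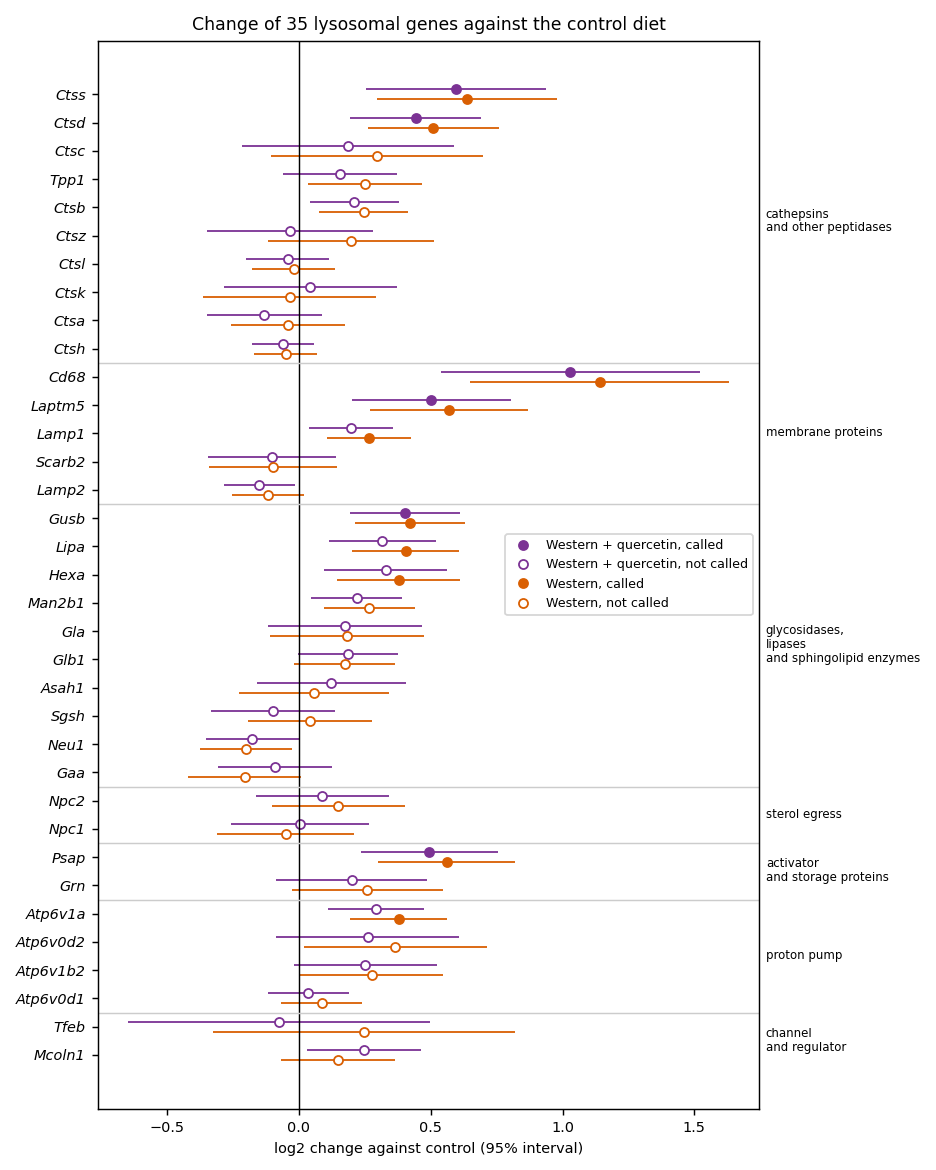
Change of the 35 measured members against the control diet, grouped by role, on a log2 scale on the horizontal axis, with 95% intervals from limma, for the Western-style diet with quercetin (upper point of each pair) and alone (lower point). Filled points are called: 6 members with quercetin and 10 without, all to the right of 0, and Cd68 lies farthest right at 1.03 and 1.14.

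The 35 genes were read by 78 probe sets, of which 73 were above the brightness threshold and in Western livers 15 were called higher and 0 lower, when tested among all 26209 probe sets with 1 symbol above it, of which 3.62% were called higher and 1.87% lower. In that test Hexa and Lamp1 were not called (limma adjusted p = 0.0548 and 0.0559). With 0 probe sets called lower, no member could have calls in opposite directions. Uncalled probe sets differed in sign within some members, among them Lamp2. In order of brightness they changed by 0.04 and -0.35 for Sgsh and by 0.15, -0.01 and -0.08 for Mcoln1. With 17 samples left out in turn, Cd68, Psap, Atp6v1a, Ctsd, Gusb, Lipa and Laptm5 were called every time. Ctss was lost without Western mouse 1, control mouse 2 or control mouse 6, Lamp1 without Western mouse 1, 4 or 5, control mouse 2 or 6 or the averaged control sample. Hexa was lost without quercetin-fed mouse 5, Western mouse 1, 3, 4 or 5, control mouse 2, 3 or 6 or the averaged control sample. Within the samples numbered 1 to 3 in each group 0 of the 35 members were called, where 0.388% of all tested genes were higher and 0.257% lower. Within those numbered 4 to 6, 1 member was called, where 1.39% of all tested genes were higher and 0.777% lower. The 10 genes changed above 0 in both sets, but they were chosen on these same samples, so their signs are no separate test. The median change of the 35 was 0.20 in each of these sets.

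Because TFEB acts through a motif with the letters CACGTG at its core, the members' promoters were searched for it. The window ran from 250 bases before to 50 after each annotated start, taken from RefSeq on GRCm38.p6, and 29 of the 35 members had an entry. CACGTG, which reads the same on both strands, was in the window of 11 of the 29 members (37.9%) and of 8.09% of 27025 genes. The longer TCACGTGA, which contains it and is also its own reverse complement, was in 6 of the 29 (20.7%) and in 1.12% of all genes. Of the 10 genes called higher on the Western-style diet 3 held CACGTG, and of the 19 uncalled members with an entry 8 did. A match is only a run of letters, and no binding was measured. Windows of 60 bases from 3 called genes and 2 uncalled ones show how the motif sits upstream of both, with CACGTG or TCACGTGA in capitals:
Ctsd, called, chr7:142387898-142387957, minus strand: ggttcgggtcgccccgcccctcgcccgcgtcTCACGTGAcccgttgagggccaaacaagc
Atp6v1a, called, chr16:44139360-44139419, minus strand: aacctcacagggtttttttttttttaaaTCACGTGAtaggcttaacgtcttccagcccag
Lamp1, called, chr8:13159093-13159152, plus strand: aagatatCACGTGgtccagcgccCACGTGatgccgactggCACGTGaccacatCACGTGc
Mcoln1, not called, chr8:3500439-3500498, plus strand: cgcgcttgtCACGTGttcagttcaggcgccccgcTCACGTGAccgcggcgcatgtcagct
Gla, not called, chrX:134601186-134601245, minus strand: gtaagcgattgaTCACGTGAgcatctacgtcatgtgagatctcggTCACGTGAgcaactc

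Lamp1 thus shows 4 copies of the core within 60 bases, and Gla, which was not called, shows 2 copies of the longer form. Cd68, Psap, Gusb, Lipa, Laptm5, Ctss and Hexa, the other 7 called genes, held no CACGTG between those bounds.

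The Western-style diet with quercetin was compared with the control diet as well, using the same control samples. Higher levels were called for 6 of the 35 members and lower levels for 0, against 3.43% of all tested genes higher and 1.98% lower. The 6 were Cd68 (log2 change 1.03), Ctss (0.59), Laptm5 (0.50), Psap (0.49), Ctsd (0.44) and Gusb (0.40), with limma adjusted p from 0.0145 for Cd68 to 0.0475 for Laptm5. Each of the 6 was also called without quercetin, with changes of 1.14, 0.64, 0.57, 0.56, 0.51 and 0.42 in the same order. Atp6v1a, Lipa, Hexa and Lamp1, which were called without quercetin, had changes of 0.29, 0.32, 0.33 and 0.20 with it (limma adjusted p = 0.0561, 0.0642, 0.0930 and 0.145). The median over the 35 members was 0.19, and 25 were above 0. It was 0.24 among the samples numbered 1 to 3, where 1 member was called, and 0.08 among those numbered 4 to 6, where 0 were. Over all tested genes 1.03% were higher and 0.616% lower in the first of these sets, and 0.139% and 0.0953% in the second. Of the 25 macrophage markers 8 were called higher and 1, Cd163, lower, with a median change of 0.63.

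Some of these calls depended on single livers. Without quercetin-fed mouse 2 or without control mouse 6 the count against control fell to 1 member, Cd68. Cd68 was called with each of the 17 samples left out. Over all tested genes 2.24% and 2.16% were then higher and 1.27% and 1.21% lower, against 3.43% and 1.98% with all samples. The member count was 2 without quercetin-fed mouse 1, quercetin-fed mouse 5, control mouse 2 or control mouse 3. Those fits called 2.65%, 2.15%, 2.43% and 2.53% of all tested genes higher and 1.60%, 1.38%, 1.30% and 1.25% lower. With each sample left out in turn, Gusb and Psap were called 13 times of 17, Ctsd 10, Ctss 9 and Laptm5 4 times. Over the 10 genes called on the Western-style diet, quercetin-fed mouse 2 was the highest of its group for 8 and quercetin-fed mouse 6 the lowest for 8. In the Western group mouse 1 was the highest for 7 and mouse 2 the lowest for 7, and in the control group mouse 6 was the lowest for 7. The SD among quercetin-fed mice exceeded that among Western mice for 9 of the 10 genes, with a median SD of 0.26 against 0.16. Over all 35 members it did so for 28, with a median SD of 0.22 against 0.16. The share over all tested genes was not counted.

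Whether quercetin changed these genes within the Western-style diet was tested directly between both Western-fed groups. Of the 35 members 0 were called, as were 0 of all 13645 genes (0%), and 0 members and 392 genes (2.87%) had an unadjusted limma p under 0.05. The changes ran from -0.32 for Tfeb to 0.11 for Gaa, with a median of -0.05 and 7 of 35 above 0, and the median 95% interval reached 0.22 to either side. Without quercetin-fed mouse 6 the members' median was 0.01, with 18 above 0, and without quercetin-fed mouse 2 it was -0.10, with 6 above 0. All members had a limma adjusted p of 1.00. The interval of Cd68 ran from -0.58 to 0.36 around -0.11, that of Ctsd from -0.30 to 0.17 around -0.07, and that of Lamp1 from -0.22 to 0.08 around -0.07. These intervals include 0 and also decreases of the size printed, so equal levels are not shown. Of the 25 macrophage markers 0 were called between these groups, with a median change of -0.06.

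The members with the smallest unadjusted p in each role were Ctsz (log2 change -0.23), Sgsh (-0.14), Tfeb (-0.32), Atp6v1a (-0.08), Lamp1 (-0.07), Psap (-0.07) and Npc2 (-0.06). The dimmer probe sets of Ctsz changed by -0.05 and -0.07, and that of Sgsh went the other way, at 0.21. Ctsz, a carboxypeptidase, had a lowest, median and highest level of 10.44, 10.85 and 11.40 with quercetin and 10.64, 11.20 and 11.23 without it. Among the samples numbered 1 to 3 the members' median quercetin change was 0.06, with 23 of 35 above 0, and among those numbered 4 to 6 it was -0.13, with 3 above 0. The labels do not say what the numbers mark. The difference between these 2 sets, tested as an interaction, was called for 0 of the 35 members and 0 of all genes (limma), with an unadjusted p under 0.05 for 4 members and for 5.36% of all genes. The 4 were Psap, Atp6v0d2, Lipa and Laptm5.

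**Figure D3:**
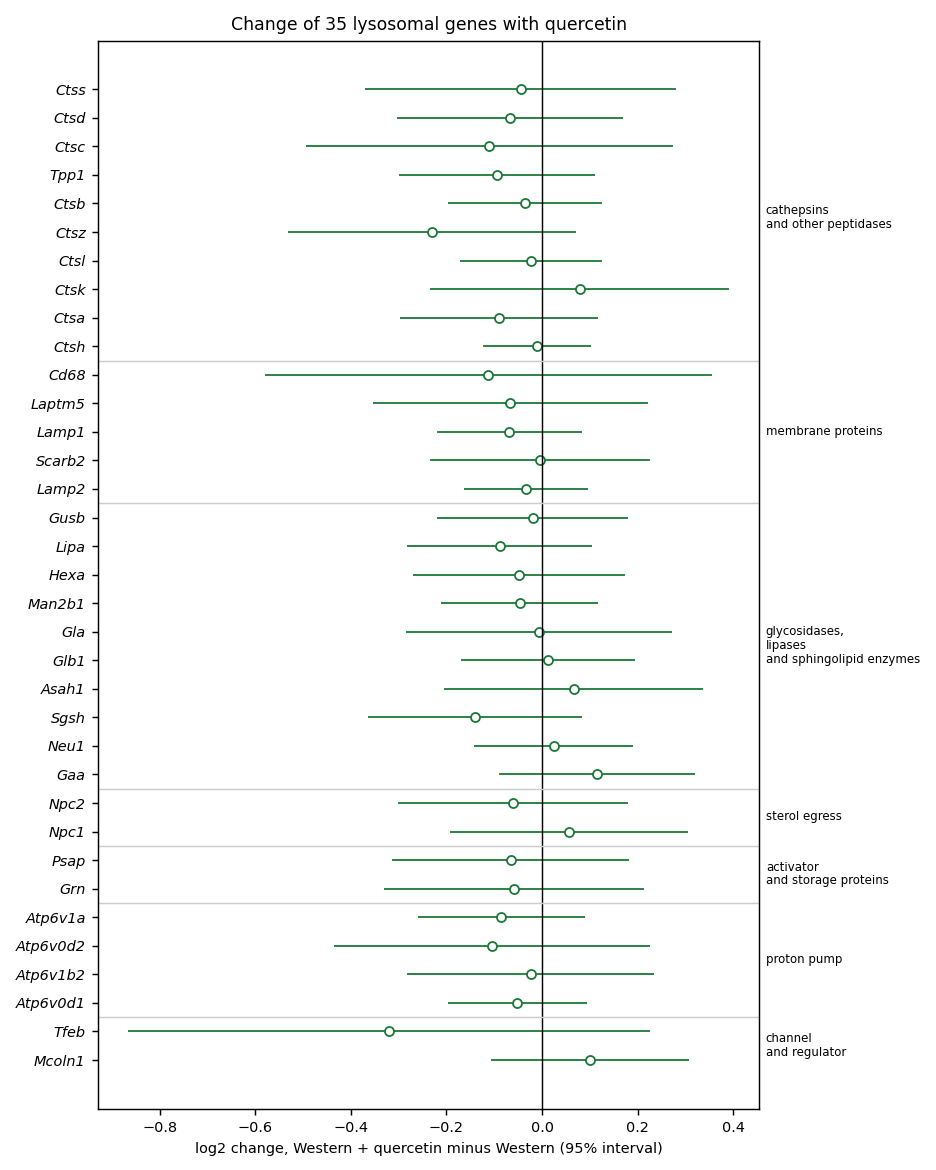
Change of the 35 measured members between the Western-style diet with quercetin and the same diet alone (log2 scale, horizontal axis), grouped by role, with 95% intervals from limma. Every interval crosses 0, and the points run from -0.32 for Tfeb to 0.11 for Gaa.

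Members were also set against the macrophage marker level, the mean log2 level of the 25 markers, over the 12 livers fed the Western-style diet with or without quercetin. Both measures were centred on the mean of their diet group, so the relation describes mice of 1 diet and not the diet itself. Of the 35 members 22 rose with the marker level and 1, Lamp2, ran against it, at a Benjamini-Hochberg adjusted permutation p under 0.05 over the 35 relations. Spearman's rho passed for 21. The weakest of the 22, Lipa, had an r of 0.67, and 7.68% of all 13645 tested genes, the markers among them, had an r at least as high. An r as low as that of Lamp2 was found for 1.72% of all tested genes, and the median r was 0.78 over the members and 0.01 over all tested genes. Pearson's r was 0.98 for Cd68 (rho 0.96), 0.97 for Ctsc (rho 0.98), 0.96 for Ctsd (rho 0.91) and 0.94 for Hexa (rho 0.79), with permutation p of 4e-05, 3e-05, 4e-05 and 0.00013 and adjusted p of 0.000467 for the first 3 and 0.00114 for Hexa. Their rho had permutation p of 0.00011, 1e-05 (the smallest the draws can give), 0.00026 and 0.00572. Lamp2 had an r of -0.76 (permutation p = 0.00897, adjusted 0.0157) and a rho of -0.69 (permutation p = 0.0254). That relation rests on its brightest probe set, and its dimmer ones were not set against the markers.

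Of the 10 genes called on the Western-style diet 9 were among the 22, with r from 0.67 for Lipa to 0.98 for Cd68, and the other was Atp6v1a (r = 0.40, permutation p = 0.149, adjusted 0.186; rho 0.51, permutation p = 0.103). Of the 25 uncalled members 13 were among the 22, Ctsc, Ctsb, Npc2, Grn and Ctsz in front. The marker level ranged from 7.41 in quercetin-fed mouse 6 to 8.63 in quercetin-fed mouse 2, and these were the 2 livers farthest from the median. Without them the relation passed for 5 members (Cd68, Ctsc, Ctsd, Ctsb and Laptm5, with r of 0.96, 0.88, 0.88, 0.84 and 0.83). For the other 18 it no longer passed, with r over the 10 remaining livers from 0.38 for Lipa to 0.80 for Hexa in 17 of them and -0.45 for Lamp2. The 10 called genes had a median r of 0.91 among the 6 livers numbered 1 to 3. It was 0.90 among the 6 numbered 4 to 6. Each of the 22 had an r above 0 in both sets, but they were chosen on these same livers, so their signs are no separate test. Neu1, Gaa, Sgsh, Scarb2 and Tfeb had r between -0.13 and 0.16, and Npc1 had -0.58 (permutation p = 0.0508, adjusted 0.0741; rho -0.39, permutation p = 0.229). No other cell type's markers were set against the members. The source of the shared variation between mice was not tested.

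**Figure D4:**
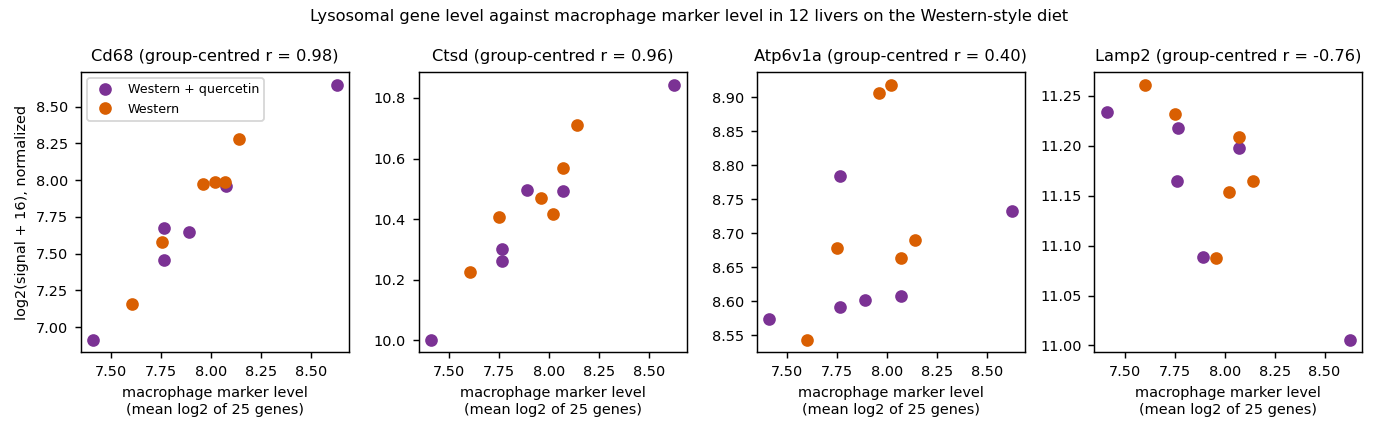
Level of Cd68, Ctsd, Atp6v1a and Lamp2 (log2(signal + 16), vertical axes) against the macrophage marker level (mean log2 of 25 genes, horizontal axes) in 12 livers, 6 fed the Western-style diet with quercetin and 6 fed it alone. The group-centred r is 0.98, 0.96, 0.40 and -0.76, and quercetin-fed mouse 2 is the point at the far right of each panel, at a marker level of 8.63.

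Of 82 further genes listed for lysosomal enzymes, transport, delivery and the proton pump 71 were measured. In Western livers 11 of the 71 were called higher and 1 lower, with a median change of 0.09, where 5.49% of all tested genes were higher and 3.16% lower. Dnase2a, the acid DNase that digests the DNA of engulfed cells, was at 8.73 ± 0.27 (SD, n = 6) in quercetin-fed, 8.74 ± 0.42 (SD, n = 6) in Western and 7.56 ± 0.31 (SD, n = 5) in control livers, a 2.28-fold Western increase (limma adjusted p = 0.000982). Lgmn, an asparagine-specific protease that matures cathepsins, was at 9.21 ± 0.53 (SD, n = 6), 9.26 ± 0.38 (SD, n = 6) and 8.29 ± 0.10 (SD, n = 5), a 1.96-fold Western increase (limma adjusted p = 0.00908). Slc15a3, a peptide transporter, rose by 0.79, Galns, a sulfatase of keratan sulfate, by 0.50, and Litaf, a membrane protein of late endosomes, by 0.45 (limma adjusted p = 0.01997, 0.00244 and 0.00826). Gm2a, the activator protein that works with Hexa on ganglioside GM2, fell to 8.99 ± 0.16 (SD, n = 6) in Western livers and was at 9.15 ± 0.12 (SD, n = 6) with quercetin, against 9.45 ± 0.07 (SD, n = 5) in control livers (Western–control log2 change -0.46, limma adjusted p = 0.00242). Of the 8 genes for delivery to the lysosome 0 were called, and of 13 further proton pump genes 1 was. With quercetin 6 of the 71 were higher than control and 1 lower, where 3.43% of all tested genes were higher and 1.98% lower. Between both Western-fed groups 0 of the 71 were called, and the smallest unadjusted limma p were those of Slc29a3 (log2 change -0.27), a nucleoside transporter, Mitf (-0.18), a transcription factor related to TFEB, and Slc38a9 (-0.23), an amino acid transporter.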

How the data were processed

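Liver RNA of 18 mice, 6 per diet, had been hybridised to Affymetrix Mouse430_2 arrays after 1-cycle cDNA synthesis and biotin labelling, per the labels' protocols. The deposited values are intensity on a linear scale, 1 signal for each of 45101 probe sets, and how the authors computed them from the scans is not given in the sources used here. No genome build was stated. Values ran from 0.0118 to 12323.2 with 0 missing. Precision is limited by how many arrays there are. Nothing says which mice shared a cage, so p-values measure the spread between mice and cages could not be modelled.

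The 64 control probe sets were set aside and the rest converted to log2(value + 16) and quantile normalized. Of them 34945 were paired with 1 symbol, 932 with several and 9160 with none in the platform annotation. The brightest probe set stood for each gene, and genes whose mean level was below the 25th percentile of gene means (log2 4.56) were not tested. limma 3.58.1 in R 4.3.3 fitted 1 mean per group to 17 samples, control arrays 4 and 5 averaged, with two-sided tests and Benjamini-Hochberg adjustment over all genes of a comparison. Relations with marker levels used 100000 permutations within diet group. The fit was tested on simulated data. Promoters were RefSeq's for GRCm38.p6. Figures used matplotlib 3.10.9 in Python 3.11.15.

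The members, the other gene lists, the tests and the rule for named genes (every called member, the smallest p in each role, up to 6 and 3 other lysosomal genes) were chosen with earlier results of these data known. The interaction between quercetin and the sample numbers and the share of all genes that follow the macrophage markers were added after seeing the data. Alternatives covered scaling, pseudocount, brightness filter, probe set choice, samples in the fit, numbers as blocks, the actin ratio and each sample left out.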

Additional observations from a re-analysis of the deposited data

Results flagged for a closer look

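Among 105 groups of samples, each 1 member in 1 diet, 4 held a mouse far from the rest by Dixon's test at the 95% level, and chance alone flags about 1 in 20. Laptm5 was at 8.03 in quercetin-fed mouse 2 where the other 5 lay between 7.15 and 7.40, and Atp6v1b2 was at 8.64 in the same mouse where the others lay between 7.93 and 8.14. Ctsz was at 10.64 in Western mouse 2, below the other 5 at 11.13 to 11.23. Ctsk was at 5.72 in control mouse 3, above the others at 4.74 to 5.02.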

How the results depend on the processing

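Members called higher on the Western-style diet against control numbered 10, and 21 on the values as deposited (all-gene median 0.22, 26.7% of all genes higher and 0.616% lower, against 5.49% and 3.16%), 0 among samples numbered 1 to 3, 1 among those numbered 4 to 6 and 0 with the actin ratio as a covariate. In the last 3 settings 0.388%, 1.39% and 1.10% of all tested genes were higher and 0.257%, 0.777% and 0.564% lower. With quercetin against control they numbered 6, and 16 on the values as deposited (23.4% of all genes higher), 2 when only the compared groups were fitted, 1 among numbers 1 to 3, 0 among numbers 4 to 6 and 0 with the actin ratio. Of all tested genes 3.43% were higher and 1.98% lower in the main fit, and 2.18% and 1.23% with only the compared groups. These shares were 1.03% and 0.616% among numbers 1 to 3, 0.139% and 0.0953% among numbers 4 to 6 and 0.667% and 0.469% with the actin ratio. The labels do not say that equal numbers pair samples. Deviations from the group means correlated over 0.1 in 11 of 14 same-numbered pairs across groups (median 0.13, lowest -0.26), in 14 of 34 pairs of other numbers within 1 to 3 or within 4 to 6 (median 0.09) and in 1 of 48 pairs across those sets (median -0.11), so not every pair met the rule for pairing, and 7 of 17 samples correlated best with their own number. With the replicate number as a block the counts were 10 and 3 (Cd68, Gusb and Psap), and 0 between both Western-fed groups, and with the 2 sets as a block 12, 9 and 0. With the number as a block 5.04% of all tested genes were higher and 3.33% lower without quercetin, and 3.09% and 2.16% with it. With the 2 sets as a block these shares were 6.68% and 4.49%, and 4.60% and 3.02%. Each sample left out in turn gave 7 to 12 members against control without quercetin, 1 to 8 with it and 0 to 0 between both Western-fed groups, where 0 were called under every alternative. Over all 13645 tested genes the left-out fits called 748 to 1394 genes without quercetin, 460 to 949 with it and 0 between both Western-fed groups. The lowest count of 7 members came without Western mouse 1, control mouse 2 or control mouse 6. In the mean of all probe sets, or with the _x_at and _s_at probe sets dropped, Gaa was called lower on the Western-style diet, the 1 lower call under any alternative. Of all tested genes 3.22% and 3.11% were called lower in those settings. The relation with macrophage markers passed for 23 members, 25 on the values as deposited and 5 without the 2 farthest livers. It gave no test within numbers 1 to 3 or 4 to 6, where 6 livers each give only r. Array medians centred, pseudocounts of 1 and 64, no brightness filter, probe set choice, 18 arrays and a block of 2 sets left each count against control without quercetin within 1.5 times of its main value. Except where fewer samples were fitted by construction, the cause of these shifts was not tested.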
